A study of Mus musculus with 4 samples.

Results

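Expression of 10 genes of TGF-beta and activin signaling was followed in CD45+ cells of mouse skin and of skin tumors. The genes were listed with earlier results of these data known, so their shares beside all genes are descriptions. They were the ligand Tgfb1, the activating integrin subunit Itgb8 and the receptors Tgfbr1, Tgfbr2 and Acvr2a. The others were the transducer Smad3, the inhibitors Smad7, Ski and Skil, and the transcription factor Runx3. All 10 were among the 31053 genes counted. Levels were read in 15 gates, which are classes of cells picked by marker genes, and none of the 10 genes was a marker of any gate.

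TGF-beta is secreted in a latent complex and is released from it by integrins, among them the pair of alpha v and beta 8. Free ligand joins TGFBR2 and TGFBR1, activin joins type II receptors such as ACVR2A, and both receptor pairs phosphorylate SMAD2 and SMAD3, which enter the nucleus with SMAD4. SMAD7 blocks the receptors, whereas SKI and SKIL hold back SMAD complexes on DNA, and all 3 inhibitors form feedback loops. In skin, TGF-beta is known to be needed for Langerhans cells, the antigen-presenting cells of the epidermis, and for the lodging of T cells there, through the integrin subunit CD103 (Itgae), which binds E-cadherin. RUNX3 acts with this pathway in Langerhans cells, in dendritic epidermal T cells (DETC, the gamma delta T cells of mouse epidermis) and in resident CD8 T cells.

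The samples were skin of uninoculated C57/BL6 mice (control skin, 2 libraries) and tumors grown in C57/BL6 mice (2323 tumor, 2 libraries). The tumors followed subcutaneous injection of 2323 cells into the flank. Each sample gave 1 droplet library of 3' RNA. Skin was thus compared with tumors of cells injected under it, and the design does not separate tissue site from tumor. The 2323 line was derived from 1 mouse model that carries, among its alleles, K14rtTA, tetOCre and loss of p53. Tumor cells of both libraries therefore stem from 1 line, and the immune cells belong to the host. The inoculated mice were of both sexes and 8 to 10 weeks old, and control animals are described only as uninoculated. Nothing says which animal gave which library, so p-values measure at most the spread between these samples. Where 2 gates of the 2 control libraries were compared, few residual degrees of freedom remained. Those p-values rest largely on a spread shared across genes, so very small ones do not measure how well a gene repeats between libraries.

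After the filters on cells, 2981 and 3089 cells of control skin and 4784 and 1994 cells of 2323 tumor were kept, with median depths of 10610, 11096, 12522 and 13362 unique molecular identifiers (UMIs) per cell. Of these 12848 cells, 8096 fell into exactly 1 gate. Pairs of libraries shared 1 to 5 cell barcodes. Levels are UMIs of a gene per 10,000 UMIs of all genes, summed over the cells of a gate in 1 library, and such a sum cannot tell fewer expressing cells from less RNA per cell. Gates bear the name of the cell type whose markers define them. Of markers that a gate did not use, Trdv4, a variable gene of the DETC receptor, was at 7.92 and 7.27 UMIs per 10,000 in the DETC gate of control skin, at 3.66 and 3.31 in dermal gamma delta T cells, at 1.42 and 1.24 in ILC2 and at 0.0420 and 0.050 in Langerhans cells. It was thus not confined to the DETC gate. Free RNA was also measurable, since Cd207 lay between 0.136 and 0.605 in 9 other gates of the control libraries and between 0 and 0.118 in the same gates of the tumor libraries. Outside these 9 gates, Cd207 was at 0.715 and 0.273 in control dermal gamma delta T cells and at 2.35 and 4.56 in control mast cells. The part of free RNA in the results was not tested.

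Runx3 lies on chromosome 4 from 135120652 to 135177990 of GRCm38 on the plus strand and is transcribed from 2 promoters, a distal and a proximal one. Both are printed below because Runx3 set the epidermal cells apart in every comparison of control skin. The sequences are the RefSeq windows of GRCm38.p6, 250 bases before to 50 after each start, read 5′ to 3′. Capitals mark TGTGGT, a RUNX motif, or its reverse complement in the distal window and the SMAD palindrome GTCTAGAC in the proximal one. The distal window spans chr4:135120395-135120694 and the proximal window, which starts inside the gene, chr4:135152295-135152594.
Runx3 distal: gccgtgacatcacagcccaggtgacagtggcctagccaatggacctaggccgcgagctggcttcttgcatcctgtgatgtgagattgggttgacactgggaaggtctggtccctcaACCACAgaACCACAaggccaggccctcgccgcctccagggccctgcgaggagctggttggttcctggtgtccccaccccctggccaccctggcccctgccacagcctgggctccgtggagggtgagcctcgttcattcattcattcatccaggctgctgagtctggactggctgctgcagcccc
Runx3 proximal: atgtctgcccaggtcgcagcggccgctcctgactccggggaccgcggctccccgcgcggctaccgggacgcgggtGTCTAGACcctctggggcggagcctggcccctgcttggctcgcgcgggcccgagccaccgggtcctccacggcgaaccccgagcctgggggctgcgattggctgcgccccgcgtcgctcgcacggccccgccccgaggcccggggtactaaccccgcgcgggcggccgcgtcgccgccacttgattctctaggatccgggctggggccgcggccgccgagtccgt
The distal window held TGTGGT at 2 places on either strand and the proximal window GTCTAGAC at 1. Among all 32851 promoter windows of the same length, 16.8% held TGTGGT and 0.213% held GTCTAGAC on either strand. Promoter windows were found for 8 of the 10 genes, all but Skil and Smad7, and Runx3 was the only gene of the 8 with either motif. A match is a description of the letters, and counts at the 3' end do not tell which promoter was used.

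Langerhans cells of control skin were compared with other antigen-presenting cells of the same libraries, to ask which pathway genes mark the epidermal cell. Runx3 and Smad7 were higher in Langerhans cells in both comparisons and Tgfb1 was lower in both. The level of Runx3 was 7.51 and 8.13 UMIs per 10,000 in the Langerhans cell gate, 1.16 and 1.81 in cDC2 (conventional type 2 dendritic cells) and 1.52 and 0.962 in C1q-high macrophages. Both Langerhans values were above all 4 others, with a log2 difference of 2.43 ± 0.20 (SE) from cDC2 (adjusted p = 2.50e-07, edgeR quasi-likelihood test) and of 2.70 ± 0.18 from the macrophages (adjusted p = 2.47e-05). Smad7, the receptor inhibitor, was likewise higher in Langerhans cells, at 3.65 and 2.51 against 0.609 and 1.03 in cDC2 and 0.858 and 0.686 in macrophages. The log2 differences were 1.86 ± 0.27 (adjusted p = 6.73e-05) and 1.96 ± 0.15 (adjusted p = 5.45e-05).

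The ligand and the receptors did not follow one pattern. Tgfb1 was lower in Langerhans cells, at 1.42 and 1.49 UMIs per 10,000, than in cDC2 at 2.19 and 2.43 and in macrophages at 2.32 and 2.41. The log2 differences were -0.64 ± 0.19 and -0.71 ± 0.14 (adjusted p = 0.0261 and 0.0052). The call against cDC2 was lost with DESeq2 (adjusted p = 0.166) and without the filter on low counts (adjusted p = 0.0716). The type I receptor Tgfbr1 was at 2.62 and 2.58 in Langerhans cells and 0.672 and 0.289 in cDC2, a log2 difference of 2.57 ± 0.27 (adjusted p = 3.30e-06), and at 3.15 and 1.86 in macrophages, where the libraries overlapped and the gene did not pass the test (adjusted p = 0.701). The type II receptor Tgfbr2 was below the macrophages, at 0.634 and 0.606 against 1.12 and 1.32 (log2 -0.99 ± 0.18, adjusted p = 0.0037). Langerhans cells thus carried more Tgfbr1 transcript than cDC2 and less Tgfbr2 transcript than macrophages.

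Acvr2a, the activin receptor, was at 0.726 and 0.709 in Langerhans cells and 0.331 and 0.461 in macrophages (log2 0.82 ± 0.21, adjusted p = 0.0176), and this call was lost with DESeq2 (adjusted p = 0.0731). Smad3 was low in Langerhans cells at 0.290 and 0.215 and reached 0.617 and 0.702 in macrophages (log2 -1.43 ± 0.22, adjusted p = 0.0017). Ski was lower than in macrophages, at 0.602 and 0.562 against 1.18 and 1.03 (adjusted p = 0.0032), whereas its relative Skil was higher than in cDC2, at 2.13 and 1.74 against 1.05 and 1.07 (adjusted p = 0.0070, and 0.0609 with DESeq2). Against macrophages, at 1.95 and 1.77, Skil did not pass (log2 0.04 ± 0.14, adjusted p = 0.863). Itgb8 was at 0.0650 and 0.0014 in Langerhans cells, 0 and 0.347 in cDC2 and 0.0268 and 0.0155 in macrophages and passed neither test. All 10 genes passed the filter on low counts in both comparisons. Against cDC2, 5 of the 10 were called, beside 19.7% of all 10565 genes tested, and against macrophages 7 of the 10, beside 35.0% of 11274 genes.

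**Figure D1:**
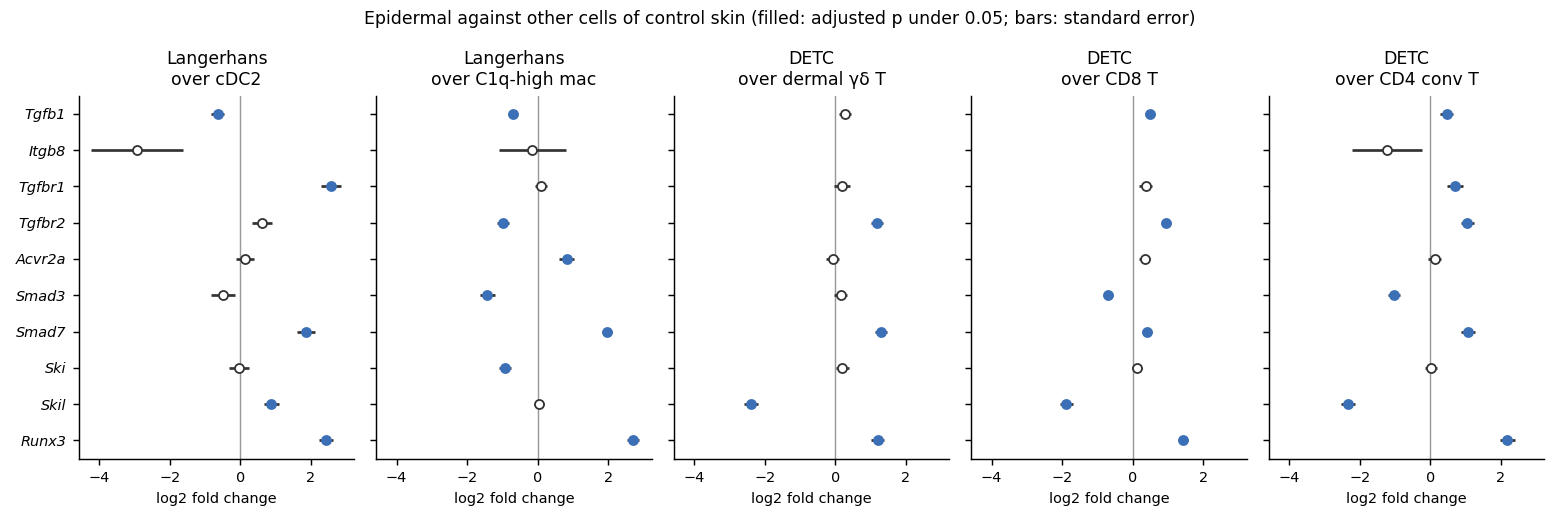
Log2 fold change (x axis) of the 10 genes (y axis) between an epidermal gate and another gate of the same 2 control skin libraries, with bars for the standard error and filled points for an adjusted p under 0.05. Runx3 and Smad7 lay to the right of 0 in all 5 comparisons, and Skil lay to the left of -1.8 in the 3 comparisons of DETC.

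DETC were compared with 3 other T cell gates of control skin. Runx3, Tgfbr2 and Smad7 were higher in DETC in all 3 comparisons, and Skil was lower. Runx3 was at 10.9 and 11.2 UMIs per 10,000 in DETC, against 5.88 and 4.13 in dermal gamma delta T cells, 4.42 and 4.54 in CD8 T cells and 2.95 and 2.40 in CD4 conventional T cells. No library of the other gates reached the DETC values. The log2 differences were 1.20 ± 0.18 (adjusted p = 4.63e-10), 1.42 ± 0.14 (adjusted p = 1.78e-11) and 2.18 ± 0.20 (adjusted p = 7.85e-26) in that order.

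Tgfbr2 was also highest in DETC, at 6.60 and 6.74, and lay at 3.49 and 2.62 in dermal gamma delta T cells, 3.38 and 4.35 in CD8 T cells and 4.41 and 2.78 in CD4 conventional T cells. Its log2 differences ran from 0.93 ± 0.14 to 1.18 ± 0.18, with adjusted p of 9.35e-10, 6.97e-07 and 2.79e-07. Smad7 was at 6.90 and 6.27 in DETC and at 4.02 and 1.80 in dermal gamma delta T cells, 5.69 and 5.23 in CD8 T cells and 4.64 and 2.46 in CD4 conventional T cells. It was called against all 3, with the smallest difference against CD8 T cells (log2 0.40 ± 0.14, adjusted p = 0.0221), which was lost in 5 of 9 alternatives, among them DESeq2 (adjusted p = 0.0903) and no cycling cells (adjusted p = 0.271). The receptor and its inhibitor were therefore both high in the epidermal T cell.

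Skil ran the other way. It was at 0.464 and 0.418 UMIs per 10,000 in DETC and at 2.47 and 2.25 in dermal gamma delta T cells, 1.68 and 1.89 in CD8 T cells and 2.23 and 2.78 in CD4 conventional T cells, with log2 differences of -2.38 ± 0.20, -1.88 ± 0.18 and -2.33 ± 0.19 (adjusted p = 3.78e-30, 3.13e-12 and 4.87e-32). Its relative Ski was at 2.41 and 2.39 in DETC and passed none of the 3 tests (adjusted p = 0.513, 0.602 and 0.956). Smad3 was at 2.52 and 2.21 and lower than in CD8 T cells at 4.57 and 3.78 (adjusted p = 1.36e-04) and CD4 conventional T cells at 5.0 and 5.79 (adjusted p = 6.36e-08), while dermal gamma delta T cells, at 2.35 and 2.05, did not pass (adjusted p = 0.642).

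Tgfb1, at 3.37 and 3.03 in DETC, exceeded CD8 T cells by 0.49 ± 0.15 (adjusted p = 0.0084) and CD4 conventional T cells by 0.47 ± 0.18 on the log2 scale (adjusted p = 0.0343). With DESeq2 these became adjusted p = 0.0964 and 0.197, and the second was lost in 5 of 9 alternatives. Tgfbr1 passed only against CD4 conventional T cells, at 1.19 and 1.01 against 0.676 and 0.868 (adjusted p = 0.0062, and 0.208 with DESeq2). Acvr2a was at 2.04 and 1.95 in DETC and passed no test. Against dermal gamma delta T cells 4 of the 10 genes were called, with 9 past the filter, beside 24.5% of 10611 genes. Against CD8 T cells it was 6, with 9 past the filter, beside 36.9% of 10760, and against CD4 conventional T cells 7, with 10 past the filter, beside 32.9% of 10669. Itgb8 was the gene left out by the filter.

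**Figure D2:**
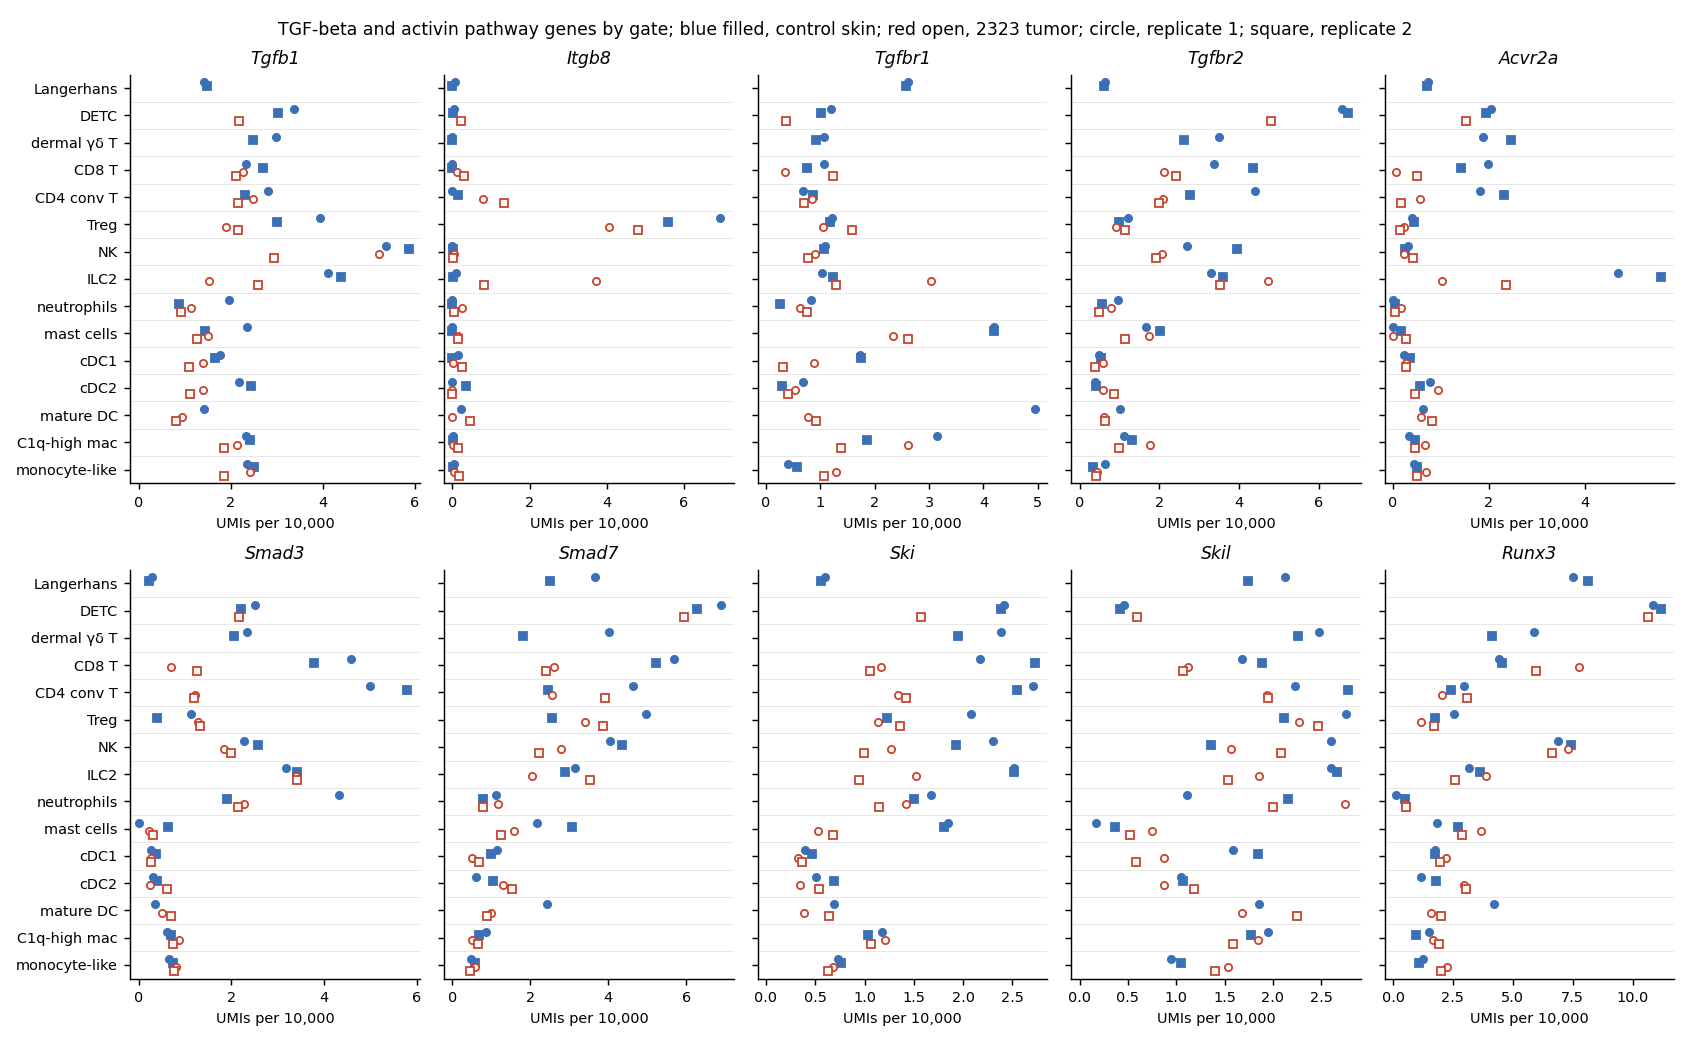
Level of each of the 10 genes in UMIs per 10,000 (x axis) in 15 gates (y axis), 1 point per library with at least 10 cells in the gate. Runx3 was highest in DETC, Itgb8 in Treg and Acvr2a in ILC2 of control skin, and the red open points of 2323 tumor lay below the blue points for Smad3 in CD8 T and CD4 conventional T cells.

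Across all gates of control skin, Runx3 ranked DETC first, followed by Langerhans cells at 7.51 and 8.13 and NK cells at 6.89 and 7.41, with both Langerhans values above both NK values but by less than the spread within a pair. Tgfb1 was led by NK cells at 5.38 and 5.86, then ILC2 (group 2 innate lymphoid cells) at 4.10 and 4.39, Treg (Foxp3+ regulatory T cells) at 3.93 and 3.0 and DETC at 3.37 and 3.03, and Treg and DETC overlapped. Acvr2a was led by ILC2 at 4.70 and 5.60, above dermal gamma delta T cells at 1.89 and 2.45 and CD4 conventional T cells at 1.82 and 2.32, which overlapped. Itgb8 was at 6.95 and 5.60 in Treg, and its next gates, cDC2 at 0 and 0.347 and mature dendritic cells at 0.220 and 0, overlapped each other. These orders are descriptions of 2 libraries each.

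Smad3 was highest in CD4 conventional T cells at 5.0 and 5.79 and CD8 T cells at 4.57 and 3.78, then ILC2 at 3.18 and 3.42 and neutrophils at 4.32 and 1.89, whose values spanned those of ILC2. Tgfbr1 was led by mast cells at 4.19 and 4.19 and mature dendritic cells at 4.94 and 1.24, the latter with 11 and 8 cells and values on both sides of the mast cells. Smad7 was led by DETC, with CD8 T cells at 5.69 and 5.23 and NK cells at 4.04 and 4.34 behind. Ski ran from 0.399 and 0.468 in cDC1 to 2.70 and 2.55 in CD4 conventional T cells, and Skil from 0.168 and 0.371 in mast cells to 2.60 and 2.66 in ILC2. Smad7 in Langerhans cells stood sixth of the 15 gates, above every other dendritic cell and macrophage gate by its mean. The mature dendritic cell gate did not exclude cells with Cd207, and in control skin it held Cd207 at 15.6 and 26.2 and Epcam at 1.64 and 2.36. It is therefore not clean of Langerhans cell markers.

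Likeness was measured as Pearson's r of log2(UMIs per 10,000 + 0.1) over 54 sums of a gate and library from 15 gates, among 5151 genes, as a description. The genes closest to Itgb8 were Neb (r = 0.925), Ikzf4 (0.912) and Tbc1d30 (0.832). Closest to Runx3 were Gnas (0.842), Bex3 (0.829) and Tiprl (0.816). Tgfb1 was most like Il2rb (0.757), Ctsw (0.745) and Tcf12 (0.726), and Acvr2a most like Ramp3 (0.797), Igsf8 (0.763) and Rps6ka3 (0.744). Sums of 1 library share its depth and free RNA.

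The epidermal gates were nearly empty in the tumors, and the part of tissue site in this was not tested. The Langerhans cell gate held 379 and 326 cells in control skin and 1 and 5 in 2323 tumor, and the DETC gate 572 and 652 against 8 and 22. No test was run on these gates, and intervals below are exact Poisson intervals that cover counting error only. Runx3 in the Langerhans cell gate of tumor replicate 2 was at 6.69 (95% interval 5.15 to 8.54, 64 UMIs), beside control values of 7.51 and 8.13, and the single cell of replicate 1 had 9 UMIs of Runx3. Smad7 was at 2.51 (95% interval 1.61 to 3.73, 24 UMIs) against 3.65 and 2.51 in control skin. Skil was at 4.28 (95% interval 3.07 to 5.81, 41 UMIs) against 2.13 and 1.74.

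In the DETC gate of tumor replicate 2, Runx3 was at 10.7 (95% interval 9.32 to 12.1, 231 UMIs) and Smad7 at 5.95 (95% interval 4.97 to 7.07, 129 UMIs), beside 10.9 and 11.2 for Runx3 and 6.90 and 6.27 for Smad7 in control skin. Tgfbr2 was at 4.80 (95% interval 3.92 to 5.81, 104 UMIs) and Tgfb1 at 2.17 (95% interval 1.59 to 2.88, 47 UMIs), both below control skin at 6.60 and 6.74 for Tgfbr2 and 3.37 and 3.03 for Tgfb1. Tumor replicate 1 had 8 cells in this gate and differed, with Runx3 at 5.49 (95% interval 4.04 to 7.31, 47 UMIs) and Tgfbr2 at 1.64 (95% interval 0.895 to 2.75, 14 UMIs). In those 8 cells Trdv4, which dermal gamma delta T cells also carried, was at 1.40 against 7.92 and 7.27 in control DETC. Ly6c2, a marker of circulating cells, was at 20.3 against 0.10 and 0.342. In the 22 cells of tumor replicate 2, Trdv4 was at 3.55 (95% interval 2.80 to 4.44), near the 3.66 and 3.31 of control dermal gamma delta T cells. Itgae was at 1.98 there (95% interval 1.44 to 2.67) against 3.80 and 3.55 in control DETC, and Ly6c2 at 0.138. Whether the tumor cells of this gate are DETC cannot be told from these values.

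**Figure D3:**
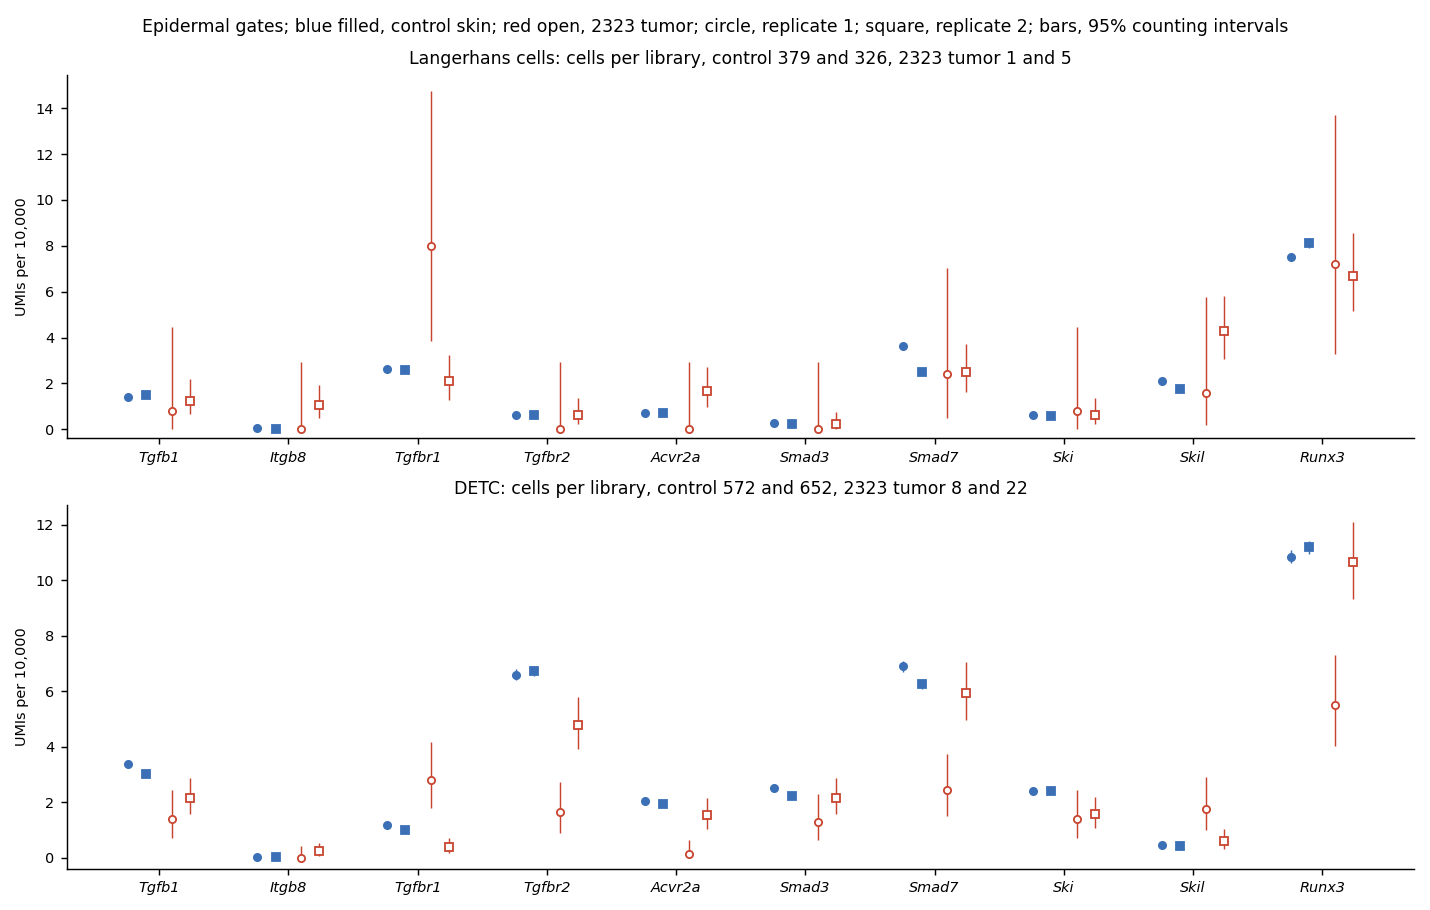
UMIs per 10,000 (y axis) of the 10 genes (x axis) in the Langerhans cell and DETC gates of each library, with exact Poisson 95% intervals. In DETC the tumor replicate 2 square for Runx3 reached 10.7 and the tumor replicate 1 circle 5.49.

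Tumors were compared with control skin in the 11 gates that held at least 10 cells in every library. The most genes were called in CD8 T cells (132 and 49 control cells, 270 and 39 tumor cells), where 6 of the 10 genes fell. Smad3 (chromosome 9, 63646767 to 63757994, minus strand) was at 4.57 and 3.78 UMIs per 10,000 in control skin and 0.698 and 1.25 in 2323 tumor, a 4.30-fold drop of the mean (log2 -2.33 ± 0.30, adjusted p = 0.0018). Acvr2a (chromosome 2, 48814109 to 48903269, plus strand) went from 1.98 and 1.43 to 0.0676 and 0.506 (log2 -3.44 ± 0.68, adjusted p = 0.0125). Its log2 change ran from -4.81 without tumor replicate 2 to -1.92 without tumor replicate 1, and with DESeq2 its adjusted p was 0.207. For both genes the groups did not overlap. Acvr2a had 1 tumor library over the limit of the filter on low counts. The control libraries alone would have passed it, so its call is a description.

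All 3 inhibitors fell in CD8 T cells as well. Smad7 was at 5.69 and 5.23 in control skin and 2.61 and 2.41 in 2323 tumor (log2 -1.25 ± 0.22, adjusted p = 0.0072). Ski was at 2.17 and 2.73 in control skin and 1.16 and 1.05 in 2323 tumor (log2 -1.26 ± 0.22, adjusted p = 0.0073), and Skil at 1.68 and 1.89 in control skin and 1.12 and 1.07 in 2323 tumor (log2 -0.83 ± 0.21, adjusted p = 0.0343). The Skil call was lost without control skin replicate 1 or 2 (adjusted p = 0.0987 and 0.107) and in 7 of 13 alternatives in all, and Ski and Skil both lost theirs without cycling cells (adjusted p = 0.134 and 0.397). The receptor Tgfbr2 fell from 3.38 and 4.35 to 2.12 and 2.43 (log2 -0.90 ± 0.22, adjusted p = 0.0323). The call was lost without control skin replicate 1 or 2, without cycling cells and with total UMIs in place of TMM (adjusted p = 0.0534, 0.154, 0.0631 and 0.0564), with log2 changes of -1.06, -0.83, -0.92 and -0.76.

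Itgb8 (chromosome 12, 119158022 to 119238802, minus strand) had 0 UMIs in the CD8 T cells of both control libraries and was at 0.117 and 0.292 in the tumors. Against a floor of 3 UMIs over the control group this is at least 14.4-fold higher. The gene passed the filter only through the tumor libraries, so that it had to differ there, and its call is a description. Runx3 was at 4.42 and 4.54 in control skin and 7.75 and 5.95 in 2323 tumor and did not pass (adjusted p = 0.223), nor did Tgfb1 (adjusted p = 0.372) or Tgfbr1 (adjusted p = 0.490). Besides Itgb8, 6 of the other 9 genes were called, beside 10.4% of 8143 genes. The sum of 11 dissociation genes such as Fos and Jun was 41.0 and 35.0 UMIs per 10,000 in control and 45.7 and 50.2 in tumor CD8 T cells, and Ikzf2 was 4.29 and 4.07 in control and 9.95 and 8.91 in tumor ones. Their part in the result was not tested.

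**Figure D4:**
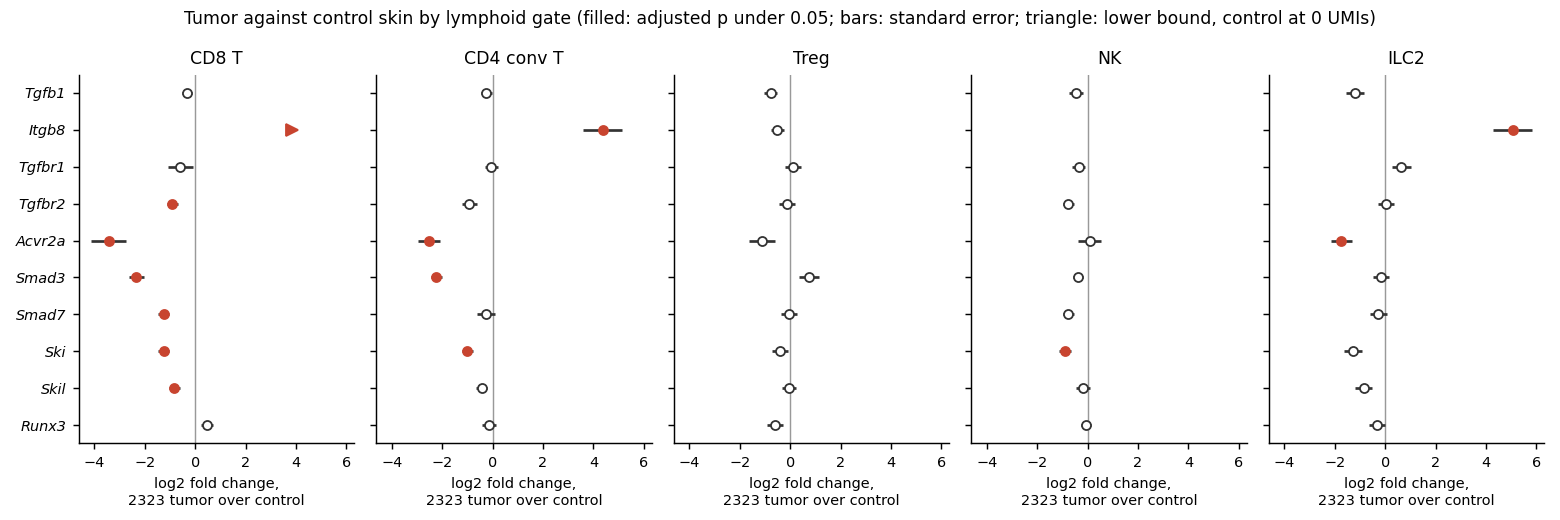
Log2 fold change of 2323 tumor over control skin (x axis) of the 10 genes (y axis) in 5 lymphoid gates, with bars for the standard error, filled points for an adjusted p under 0.05 and a triangle for a lower bound. Smad3 lay at -2.33 in CD8 T and -2.24 in CD4 conventional T cells, and at 0.75, open, in Treg.

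In CD4 conventional T cells (66 and 32 control cells, 110 and 89 tumor cells) Smad3 fell from 5.0 and 5.79 to 1.22 and 1.18 UMIs per 10,000, 4.49-fold (log2 -2.24 ± 0.22, adjusted p = 0.0016). This was of the same order as in CD8 T cells, and the call held in all 13 alternatives in both gates. Acvr2a fell from 1.82 and 2.32 to 0.559 and 0.162 (log2 -2.54 ± 0.43, adjusted p = 0.0104), with log2 values from -3.68 without tumor replicate 1 to -1.93 without tumor replicate 2. Ski fell from 2.70 and 2.55 to 1.34 and 1.42 (log2 -1.01 ± 0.22, adjusted p = 0.0261), a call that was lost without control skin replicate 1 (adjusted p = 0.146) and with DESeq2 (adjusted p = 0.0553). Tgfbr2, at 4.41 and 2.78 in control skin and 2.10 and 2.0 in 2323 tumor, did not pass here (adjusted p = 0.0860), nor did Smad7 (adjusted p = 0.714).

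Itgb8 rose in CD4 conventional T cells, from 0 and 0.145 to 0.783 and 1.34, 14.7-fold in the means (log2 4.37 ± 0.77, adjusted p = 0.0118). With DESeq2 the adjusted p was 0.422, and without cycling cells 0.0866. Leaving out control skin replicate 1 or 2 gave a log2 change of 2.85 or 9.54, since the 5 control UMIs were all in replicate 2. Only 1 control library was over the limit of the filter. The tumor libraries alone would have passed Itgb8 through it, so its call is a description. This gate has no Foxp3 UMI by its definition, but Ikzf2, a gene that Treg express highly, was at 3.27 and 0.984 in control and 7.26 and 4.64 in tumor cells of it, beside 47.0 and 47.6 in control Treg. Among other Treg genes, Ctla4 and Tnfrsf18 were higher in both tumor libraries of the gate, and Il2ra overlapped. After cells with at least 5 Ikzf2 UMIs per 10,000 were left out, Itgb8 was at 0, 0.150, 0.549 and 0.895 in the 4 libraries (log2 3.69, adjusted p = 0.0127). In all, 4 of the 10 genes were called in this gate, beside 9.02% of 7580 genes. The dissociation genes summed to 34.0 and 26.5 in control and 67.1 and 69.5 in tumor cells of the gate, and their part was not tested.

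ILC2 held 235 and 170 cells in control skin but 14 and 13 in 2323 tumor. Acvr2a, for which this was the leading gate, fell from 4.70 and 5.60 to 1.01 and 2.35 (log2 -1.74 ± 0.40, adjusted p = 0.0388). No library could be left out without losing the call, and the adjusted p then lay between 0.0557 and 0.508 while the log2 change stayed between -2.77 and -1.37. The call was also lost with DESeq2 (adjusted p = 0.0685). Itgb8 went from 0.0843 and 0.0125 to 3.72 and 0.824 (log2 5.05 ± 0.77). It too passed the filter only through the tumor libraries, so its call is a description. The log2 change was 3.73 without tumor replicate 1 and 7.08 without control skin replicate 1.

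The Itgb8 transcripts of the ILC2 gate sat in cells high in Ikzf2, which was at 4.86 and 8.88 in control and 34.0 and 22.1 in tumor cells of the gate. Without the cells that had at least 5 Ikzf2 UMIs per 10,000, the gate held 165 and 112 control cells with 0 Itgb8 UMIs and 5 and 6 tumor cells with 1 UMI in all, too few to test. No gene of this gate could be tested without those cells, Acvr2a among them. Acvr2a was at 0.406 and 0.442 in control Treg, which are high in Ikzf2. Whether the fall of Acvr2a came from ILC2 or from a different mix of cells in the gate was not tested. In tumor cells of the gate Cd3e was at 0.507 and 0.235 against 0.0890 and 0.0690 in control, and the dissociation genes summed to 88.6 and 76.0 against 43.0 and 33.3. The other 8 genes did not pass the test, among them Smad3 at 3.18 and 3.42 in control skin and 3.38 and 3.41 in 2323 tumor (adjusted p = 0.843), and Acvr2a, the call besides Itgb8, stood beside 2.18% of 7232 genes.

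In NK cells 1 gene was called of the 9 past the filter, beside 5.11% of 5810 genes. Ski fell from 2.30 and 1.93 to 1.27 and 0.995 (log2 -0.91 ± 0.23, adjusted p = 0.0464), and the call was lost without control skin replicate 1, control skin replicate 2 or tumor replicate 2 (adjusted p = 0.198, 0.0641 and 0.151) and in 8 of 13 alternatives in all. Smad7, at 4.04 and 4.34 in control skin and 2.78 and 2.22 in 2323 tumor, and Tgfbr2, at 2.70 and 3.96 in control skin and 2.06 and 1.92 in 2323 tumor, had non-overlapping groups but did not pass (adjusted p = 0.0709 and 0.0889). Acvr2a was low throughout, at 0.303 and 0.244 in control skin and 0.223 and 0.409 in 2323 tumor. The dissociation genes summed to 48.1 and 37.1 in control and 76.1 and 72.6 in tumor NK cells, and their part was not tested.

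Treg, which carried most of the Itgb8, showed no called gene by edgeR, where 3.63% of 5235 genes were called by the adjusted p. Of the 10 genes, 1 had an unadjusted p under 0.05. Itgb8 was at 6.95 and 5.60 in control and 4.07 and 4.81 in tumor Treg (log2 -0.51 ± 0.27, adjusted p = 0.405). Smad3 was at 1.13 and 0.393 in control skin and 1.28 and 1.32 in 2323 tumor (log2 0.75 ± 0.40, adjusted p = 0.392). Tgfb1 was at 3.93 and 3.0 in control skin and 1.90 and 2.16 in 2323 tumor (log2 -0.78 ± 0.27, adjusted p = 0.172). The control libraries had 23 and 22 Treg.

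Among antigen-presenting and other myeloid gates 1 gene was called. Skil fell in cDC1 from 1.58 and 1.85 to 0.877 and 0.585 (log2 -1.44 ± 0.27, adjusted p = 0.0395), beside 3.58% of 7710 genes, and without control skin replicate 1 or 2 the adjusted p was 0.143 or 0.108. The dissociation genes summed to 42.0 and 44.3 in control and 52.0 and 54.6 in tumor cDC1. No gene of the 10 was called in cDC2 (9 past the filter), C1q-high macrophages (10), monocyte-like cells (10), neutrophils (8) or mast cells (6), where 6.38%, 0.246%, 1.09%, 0.610% and 0.109% of all genes tested were called. Of these genes 2, 2, 2, 0 and 1 had an unadjusted p under 0.05. Runx3 in monocyte-like cells went from 1.25 and 1.10 to 2.24 and 2.0 without passing (adjusted p = 0.119), and Tgfbr1 from 0.402 and 0.562 to 1.28 and 1.07 (adjusted p = 0.0798). Tgfb1 in cDC2 was at 2.19 and 2.43 in control skin and 1.40 and 1.11 in 2323 tumor (adjusted p = 0.0653).

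Over the 11 gates, 102 pairs of a gene and a gate passed the filter and 15 were called, 3 higher and 12 lower, which is 14.7% beside 4.0% of the 75592 pairs of all genes. Of the 15, Itgb8 in CD8 T cells and in ILC2 passed the filter through the tumor libraries alone, which leaves 13. Among the 13, Itgb8 in CD4 conventional T cells had 1 control library over the limit of the filter and Acvr2a in CD8 T cells 1 tumor library. The higher group alone would have passed each of these, so their calls are descriptions as well. Tgfb1, Tgfbr1 and Runx3 were called in no gate. Tgfb1 was nevertheless lower in both tumor libraries than in both control libraries in 7 of the 11 gates and higher in none, and Ski lower in 8 and higher in none. Runx3 was higher in 7 and lower in 1. Over all genes tested in these gates, 19.9% were lower and 32.4% higher without overlap.

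The tumor effects were then compared between gates by the interaction of gate and group, with the library as a term. Smad3 changed differently in CD4 conventional T cells and Treg, by 2.98 ± 0.41 on the log2 scale (Treg minus CD4 conventional T cells, adjusted p = 1.70e-04), and Itgb8 by -4.88 ± 0.65 (adjusted p = 1.12e-04). The Itgb8 difference was lost with DESeq2 (adjusted p = 0.249) and without cycling cells (adjusted p = 0.132), and ran from -9.88 without control skin replicate 2 to -3.21 without control skin replicate 1. The Smad3 difference ran from 2.42 to 3.93 and was called in all 4 cases. These were 2 of the 10 genes, beside 1.84% of 7763 genes.

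Between CD8 T and NK cells, the tumor effect differed for Smad3 by 1.95 ± 0.34 (NK minus CD8 T cells, adjusted p = 0.0352) and for Acvr2a by 3.45 ± 0.64 (adjusted p = 0.0438). Both were lost without control skin replicate 1 (adjusted p = 0.130 and 0.0872) and without cycling cells (adjusted p = 0.0795 and 0.0965). They were 2 of 9 genes past the filter, beside 0.890% of 7301 genes. Between cDC2 and C1q-high macrophages no gene of the 10 was called by edgeR, where 0.862% of 9400 genes were called by the adjusted p. Of the 10 genes, 2 had an unadjusted p under 0.05.

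**Figure D5:**
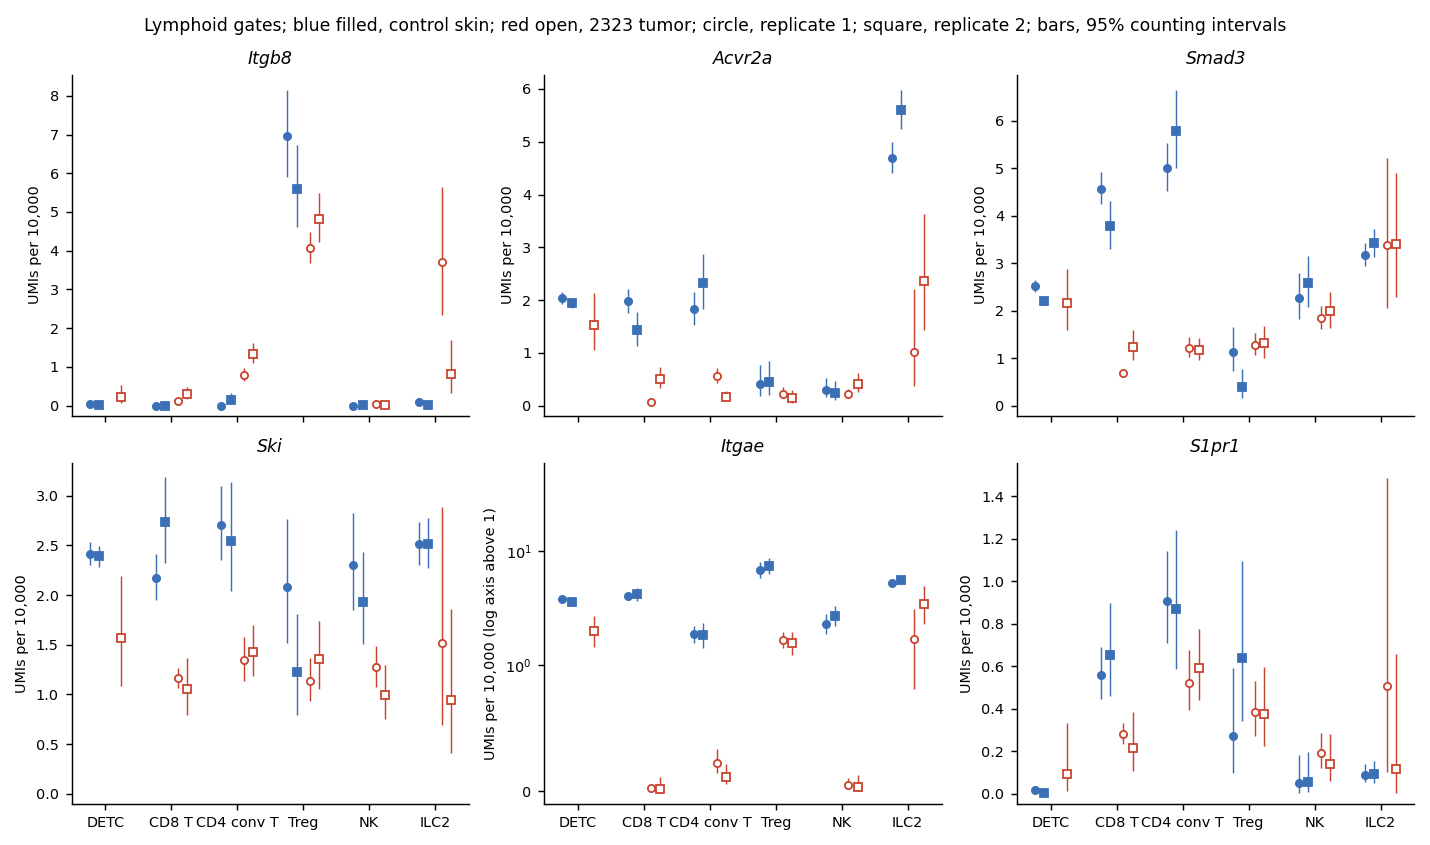
UMIs per 10,000 (y axis, Itgae on a log axis above 1) of 6 genes in 6 lymphoid gates (x axis), 1 point per library with at least 10 cells and exact Poisson 95% intervals. Itgae lay at 4.02 and 4.16 in control and 0.0248 and 0.0195 in tumor CD8 T cells, whereas Smad3 in ILC2 stayed between 3.18 and 3.42.

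A list of 47 other genes of the pathway was counted in the same fits. In CD8 T cells 25 passed the filter, of which 2 were called higher and 6 lower, beside 10.4% of all genes called, with a median log2 change of -0.24 against 0.07 over all genes tested. In CD4 conventional T cells 2 were called higher and 1 lower of 23 tested, beside 9.02%, and the median was -0.15 against 0.01 over all genes tested. Both higher genes, Inhba and Thbs1, passed the filter only through the tumor libraries. The lower gene, Itgae, had 1 tumor library over the limit. Thbs1 and Itgae are in the CD8 T cell count too, where each passed only through the libraries of its higher group. These counts are therefore descriptions. Of 15 tested in Treg 1 was called higher and 1 lower, beside 3.63%. In NK cells it was 1 and 2 of 17 (beside 5.11%), and in ILC2 1 and 1 of 24 (beside 2.18%). In cDC1 it was 0 and 4 of 22 (beside 3.58%), and in cDC2 0 and 2 of 21 (beside 6.38%). Monocyte-like cells had 0 and 2 of 30 (beside 1.09%). No list gene was called of 37 in C1q-high macrophages (beside 0.246%), 14 in neutrophils (beside 0.610%) or 11 in mast cells (beside 0.109%). Furin, the protease that cuts the TGF-beta precursor, fell in 6 gates, for example from 10.6 and 12.2 to 1.86 and 2.47 in ILC2 (log2 -2.58 ± 0.38, adjusted p = 0.0050) and from 1.88 and 2.42 to 0.365 and 0.992 in CD8 T cells (log2 -1.99 ± 0.40, adjusted p = 0.0125). Thbs1, thrombospondin 1, which can release the latent ligand, was called higher in 4 lymphoid gates, all of which it entered only through the tumor libraries, among them CD4 conventional T cells with 0.0128 and 0.0579 in control skin and 0.242 and 0.995 in 2323 tumor. Its level was 37.7 and 49.8 in control neutrophils, far above these gates.

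Partners of the 10 genes moved in single gates. Itgav, the alpha v subunit that pairs with beta 8, rose in CD8 T cells from 2.19 and 2.44 to 6.51 and 8.41 (log2 1.55 ± 0.23, adjusted p = 0.0038), and was at 15.3 and 18.1 in control ILC2. Lrrc32, which holds latent TGF-beta on Treg, rose in Treg from 0.587 and 0.541 to 1.52 and 1.61 (log2 1.46 ± 0.33, adjusted p = 0.030), a call lost without control skin replicate 1 or 2 (adjusted p = 0.0909 and 0.120). Inhba, the activin A subunit, had 0 UMIs in control CD4 conventional T cells and was at 0.298 and 0.428 in tumor ones, at least 13.7-fold higher against a floor of 3 UMIs over the group. It passed the filter only through the tumor libraries, so no test is given. In monocyte-like cells Inhba was at 0.0850 and 0.387 in control skin and 0.819 and 2.81 in 2323 tumor, which did not pass (adjusted p = 0.149).

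The shared transducers Smad2 and Smad4, the type I activin receptor Acvr1b and Nrros, the anchor of latent TGF-beta on myeloid cells, were called in no gate of the tumor comparison. In control skin, Nrros was lower in Langerhans cells, at 1.30 and 1.72, than in cDC2 at 3.24 and 2.76 (adjusted p = 0.0022) and macrophages at 2.62 and 2.63 (adjusted p = 0.0034). Itgav was lower in Langerhans cells than in macrophages (log2 -1.73 ± 0.13, adjusted p = 3.98e-05), and so was Lrrc32 (log2 -2.05 ± 0.47, adjusted p = 0.0117, and 0.103 with DESeq2). All 5 genes of latency and activation past the filter were called lower in Langerhans cells than in macrophages, beside 35.0% of all genes called. Against cDC2 it was 1 of 5, beside 19.7%. Smad2 was higher in DETC than in each of the 3 other T cell gates, at 1.10 and 0.887 against 0.488 and 0.395 in CD8 T cells (log2 1.28 ± 0.21, adjusted p = 1.83e-06). With DESeq2 its adjusted p was 0.227 against dermal gamma delta T cells and 0.345 against CD4 conventional T cells. Of the 47 genes, Langerhans cells had 8 higher and 3 lower of 33 tested against cDC2, beside 19.7% of all genes called (median log2 difference 0.32 against 0.07 over all genes tested) and 10 higher and 13 lower of 33 against macrophages, beside 35.0% (median 0.07 against 0.01 over all genes tested). DETC had 5 higher and 5 lower of 30 against dermal gamma delta T cells, beside 24.5% (median 0.12 against 0.03 over all genes tested), 13 and 5 of 30 against CD8 T cells, beside 36.9% (median 0.64 against 0.02 over all genes tested) and 9 and 5 of 31 against CD4 conventional T cells, beside 32.9% (median 0.40 against 0.01 over all genes tested).

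Genes of tissue residency were read in the same way, with 10 retention and 5 exit genes. Itgae, a known TGF-beta target, fell in 4 gates. It went from 4.02 and 4.16 to 0.0248 and 0.0195 in CD8 T cells (log2 -7.49 ± 0.32), from 1.85 and 1.82 to 0.224 and 0.116 in CD4 conventional T cells (adjusted p = 0.0013), from 2.30 and 2.69 to 0.0496 and 0.0355 in NK cells and from 6.82 and 7.42 to 1.65 and 1.55 in Treg (adjusted p = 0.0013). No tumor library reached a control library in any of these gates. In CD8 T and NK cells it passed the filter only through the control libraries, so those calls are descriptions. In CD4 conventional T cells 1 tumor library was over the limit of the filter, so the control libraries alone would have passed it there. In cDC1, where Itgae is known as a lineage marker, it was at 1.66 and 1.31 in control skin and 2.0 and 2.07 in 2323 tumor and did not pass (adjusted p = 0.646).

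Itga1 (CD49a, a collagen receptor) and Cxcr6 (a chemokine receptor of resident T cells) each fell in 5 gates. Cxcr6 went from 10.4 and 11.3 to 2.91 and 4.55 in CD4 conventional T cells (log2 -1.61 ± 0.29, adjusted p = 0.0119), and Itga1 from 0.494 and 0.533 to 0.0563 and 0.214 in CD8 T cells (log2 -2.59 ± 0.54, adjusted p = 0.0153). Cxcr6 in cDC1 and cDC2 and Itga1 in CD4 conventional T cells, NK cells and cDC2 passed the filter only through the control libraries. Itga1 in CD8 T cells had 1 tumor library over the limit of the filter, so the control libraries alone would have passed it. Without control skin replicate 1, Cxcr6 lost its calls in CD8 T cells, cDC1 and cDC2 (adjusted p = 0.173, 0.160 and 0.0921), and Itga1 its calls in CD4 conventional T cells and cDC1 (adjusted p = 0.431 and 0.129). In cDC2 both were low in control skin, Cxcr6 at 0.820 and 0.243 and Itga1 at 0.357 and 0.417, beside the Cd207 of 0.136 to 0.605 in the 9 gates named for free RNA above. Prdm1 (BLIMP-1) rose in CD4 conventional and CD8 T cells, for example from 0.299 and 0.327 to 0.858 and 0.701 in CD8 T cells (adjusted p = 0.0229). It fell in cDC2, where it passed the filter only through the control libraries, so that call is a description. The Prdm1 call in CD8 T cells was lost without control skin replicate 1 or 2 or tumor replicate 1 (adjusted p = 0.0966, 0.0573 and 0.0809). In CD8 T cells 5 of 8 retention genes past the filter were called lower and 1 higher, beside 10.4% of all genes called, with a median log2 change of -1.30 against 0.07 over all genes tested. It was 4 of 9 lower and 2 higher in CD4 conventional T cells (beside 9.02%), 3 of 8 lower in NK cells (beside 5.11%), 2 of 6 lower in Treg (beside 3.63%), 3 of 9 lower in cDC1 (beside 3.58%) and 3 of 9 lower and 2 higher in cDC2 (beside 6.38%). No retention gene was called in the other 5 gates. The counts of lower retention genes include calls that passed the filter only through the control libraries, Itgae in CD8 T and NK cells among them. They are therefore descriptions.

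Exit genes were mixed. S1pr1, the receptor for egress along sphingosine 1-phosphate, fell in CD8 T cells from 0.559 and 0.653 to 0.279 and 0.214 (log2 -1.34 ± 0.30, adjusted p = 0.0205), but without cycling cells the change was 0.25 on the log2 scale (adjusted p = 0.833). In CD8 T cells 2 of 5 exit genes were called lower and 1 higher, beside 10.4% of all genes, with a median log2 change of 0.60 against 0.07 over all genes tested.

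In the epidermal cells of control skin, S1pr1 was nearly absent from DETC, at 0.0157 and 0.0037, against 0.559 and 0.653 in CD8 T cells (log2 -5.83 ± 0.43) and 0.272 and 0.291 in dermal gamma delta T cells. Both DETC values were under the limit of the filter on low counts, which S1pr1 passed only through the other gate. It therefore had to differ, and both calls are descriptions. Itgae was at 3.80 and 3.55 in DETC, higher than in CD4 conventional T cells at 1.85 and 1.82 (adjusted p = 1.19e-08), and did not pass against CD8 T cells at 4.02 and 4.16 (adjusted p = 0.912). Cxcr6 and Itga1, the markers of resident T cells named above, were lower in DETC than in CD8 T cells, Cxcr6 at 3.38 and 2.96 (adjusted p = 6.94e-12) and Itga1 at 0.0640 and 0.0499 (adjusted p = 1.30e-10). Of the 5 exit genes (median log2 difference -2.58 against 0.02 over all genes tested against CD8 T cells), 4 were lower in DETC than in dermal gamma delta T cells, 3 than in CD8 T cells and 4 than in CD4 conventional T cells, and none was called higher, beside 24.5%, 36.9% and 32.9% of all genes called. Of the retention genes, DETC had 2 higher and 2 lower of 9 tested against dermal gamma delta T cells (median log2 difference 0.38). Against CD8 T cells it was 2 higher and 6 lower of 10 (median -1.02). Against CD4 conventional T cells it was 3 higher and 4 lower of 9 (median -0.87). These counts stand beside the same shares of all genes. The exit counts against dermal gamma delta T cells and CD8 T cells include S1pr1, so they are descriptions. Langerhans cells had 0.710 and 0.594 Itgae, above macrophages at 0.286 and 0.130 (adjusted p = 8.52e-04). Their retention genes were 2 higher and 3 lower of 9 tested against cDC2, beside 19.7% of all genes called. Against macrophages it was 4 higher and 3 lower of 9, beside 35.0%. Their exit genes were 0 higher and 3 lower of 4 tested against cDC2, and 1 higher and 2 lower of 5 against macrophages.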

How the data were processed

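Single-cell 3' RNA libraries of CD45+ DAPI- cells, sorted after collagenase digestion of 2 control skins and 2 tumors of the 2323 line, were analysed. Per the methods and processing notes, the authors made the deposited UMI counts per gene and cell with Cell Ranger 7.1.0 on mm10, whereas the matrix headers name 7.0.1. The files held 3499, 3862, 5176 and 2258 cells with 50932896, 52784293, 73904272 and 34893543 UMIs. The study's filters were applied again: at least 100 genes and 1000 UMIs, at most 15% mitochondrial UMIs and log10 genes per log10 UMI of at least 0.8.

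Cells were put into 15 gates by UMI thresholds on markers, set after the marker distributions were seen. Departures from the marker plan were made then: dermal gamma delta T cells needed 4 UMIs of markers other than Cd163l1, and ILC2 excluded cells with Cd4, Cd8, Foxp3 or more than 1 Trac UMI. Cells in more than 1 gate were left out, which also removes mixed doublets, and Scrublet scores (scanpy 1.11.5) gave an alternative. The members and lists were chosen with earlier results of these data known.

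UMIs were summed per gate and library and tested with edgeR 4.0.16 (R 4.3.3; quasi-likelihood, TMM, filterByExpr, Benjamini-Hochberg over all genes of a comparison, two-sided, threshold 0.05), with the library as a term where gates of the same libraries were compared. DESeq2 1.42.0 was an alternative. Others were total UMIs as scale, no filter on low counts, stricter gates (thresholds multiplied by 2), stricter cell filters (2000 UMIs, 10% mitochondrial), no cycling cells, no cells high in Ikzf2, a replicate block or none, and each library left out. Intervals are exact Poisson intervals at 95%. The pipeline was tested on simulated data with known log2 changes of 1 or 2 in either direction. In the tumor comparisons 0 to 29% of changes of 1 were recovered, and 11 to 75% of changes of 2. For pairs of gates in control skin it was 18 to 51% and 53 to 81%. For differences of the tumor effect between gates it was 1 to 4% and 25 to 34%. A gene that did not pass may therefore still have changed. Named genes were the 10 members, 9 preset pathway and residency genes, and list genes called in at least 3 gates. Not every gene that met this rule is reported here.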

Additional observations from a re-analysis of the deposited data

Results flagged for a closer look

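The tumor effect differed between gates for 4 pairs of a gene and gates, by a test of the difference itself (edgeR, interaction of gate and group). For Smad3, Treg exceeded CD4 conventional T cells by 2.98 on the log2 scale (adjusted p = 1.70e-04), with Smad3 at 1.13 and 0.393 in control skin and 1.28 and 1.32 in 2323 tumor in Treg. For Itgb8 the same difference was -4.88 (adjusted p = 1.12e-04). Between NK and CD8 T cells the difference was 3.45 for Acvr2a (adjusted p = 0.0438), which rests on Acvr2a levels of 0.303 and 0.244 in control skin and 0.223 and 0.409 in 2323 tumor in NK cells, and 1.95 for Smad3 (adjusted p = 0.0352), with 2.27 and 2.58 in control skin and 1.84 and 1.99 in 2323 tumor. The control and tumor libraries did not overlap for Smad3 and Itgb8 in CD4 conventional T cells or for Smad3 and Acvr2a in CD8 T cells. Both differences between NK and CD8 T cells were lost without control skin replicate 1. Groups of 2 libraries were not examined for outlying samples.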

How the results depend on the processing

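The 48 calls of the 10 genes were recomputed under up to 13 alternatives, of which leaving out cells with high doublet scores and leaving out cells high in Ikzf2 were chosen after seeing the data. Of 482 values, 419 stayed past the threshold, 63 did not and 0 reversed, and 27 calls held throughout. The 15 calls of 2323 tumor against control skin became 28 without the filter on low counts and 7 without cycling cells, and 9 to 21 with 1 library left out, the 9 being without control skin replicate 1. They were 11 with DESeq2 and 11 with total UMIs in place of TMM, a scaling that put the median log2 change of all genes at up to 0.25 (cDC1) and at 0.21 in CD8 T cells. The 4 differences between gates became 2 with stricter gates and 1 without cycling cells, and 3 to 5 with 1 library left out. Calls of Langerhans cells numbered 9 with DESeq2 against 12, and of DETC 13 against 17. These comparisons could not be fitted with 1 library left out, since no residual degree of freedom remains. The cause of these shifts was not tested beyond the smaller number of cells or genes. Samples with the same replicate number did not deviate together in the 11 gates (correlations from -0.08 to 0.137, median 0.007), and a replicate block gave 13 calls of 2323 tumor. Without the library block, Langerhans cells had 12 calls and DETC 15. Of 73 calls of the other named genes, 40 held throughout and 2 reversed without cycling cells: S1pr1 in CD8 T cells (0.25) and Cxcr6 in Langerhans cells against macrophages (0.32). Of 260 group mean levels, 14 moved by more than 1.5-fold with stricter gates, 11 with a mean over cells and 0 with stricter filters on cells. The smallest library sums tested were of 13 to 15 cells, in tumor ILC2 and in control mast cells and neutrophils.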
